A study of Mus musculus with 6 samples.

Results

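The genes described here encode the inhibin and activin subunits, the proteins that bind activin, the activin receptors, and anti-Müllerian hormone with its receptor. They are the 10 rows of the authors' deposited table whose gene column reads Inha, Inhba, Inhbb, Fst, Fstl3, Amh, Amhr2, Acvr1b, Acvr2a or Acvr2b, of 24982 rows in all, and all 10 have an adjusted p-value. The cells were cumulus granulosa cells, which surround the oocyte, of Kun-Ming mice. Poly(A) RNA of 3 libraries labelled control was compared with that of 3 libraries labelled Atg5-KD, for cells transfected with short hairpin RNAs against Atg5, a gene required for autophagosome formation. The labels do not say what the control cells received, how old the mice were, or whether the libraries stem from different cultures or animals. The p-values therefore reflect variation among these libraries only, and that variation may be technical. By its title the series belongs to work on how autophagy of ATP citrate lyase relates to oocyte maturation.

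Inhibins pair the alpha subunit made from Inha with a beta subunit, while activins pair beta subunits made from Inhba or Inhbb with each other. Activin binds a type II receptor (Acvr2a or Acvr2b), which recruits the type I receptor Acvr1b and leads to phosphorylation of SMAD2 and SMAD3, and inhibin competes for the type II receptors. Follistatin (Fst) and follistatin-like 3 (Fstl3) bind activin and keep it from its receptors, and anti-Müllerian hormone (Amh) acts through its own type II receptor, Amhr2. In the ovary granulosa cells are the main source of inhibin, which lowers the release of follicle-stimulating hormone by the pituitary.

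For Atg5 itself the authors' deposited table lists a log2 fold change of -0.06 ± 0.14 (SE, 3 libraries per group, Wald adjusted p = 0.822), which did not pass the test. At a base mean of 405, the Atg5-KD level of Atg5 was 0.959 of control, with an interval of 0.793 to 1.16. A fall of the Atg5 transcript to below 0.793 lies outside that interval, whichever group is taken as control. The Atg5 transcript therefore did not bear out the knockdown label, and it gave no check of the direction. Atg5 protein was not measured, and why the transcript showed no large fall was not tested. No column states the direction of the fold changes. It was taken as Atg5-KD over control from how the table is named, and under the opposite order every rise here would be a fall. Base means of the table sum to 14531353 normalized counts, the mean total per library after scaling. The ribosomal RNA locus Rn45s made up an estimated 1.17% of the control total and 17.9% of the Atg5-KD total.

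Granulosa markers other than the 10 genes were present, with Foxl2, Esr2, Nr5a2 and Gja1 at base means of 1816, 1411, 2131 and 37682 in the authors' deposited table. Cyp19a1, the aromatase of granulosa cells, was at a base mean of 2.34, below the level at which the authors adjusted p-values. A gene is called at an adjusted p under 0.05, and over all 14835 tested genes 10.4% were called higher and 10.5% lower. Of the 11 tested granulosa markers 2 were higher and 5 lower, and their estimated sum was 69926 normalized counts in control and 55127 in Atg5-KD. Most of that sum was Gja1 (42021 in control and 33343 in Atg5-KD) and Serpine2 (13603 and 7336). The sum therefore does not describe the other granulosa markers. Some other marker lists moved between the groups too. Of 8 tested markers of theca and stroma 7 were lower (estimated sums 8772 and 5081), of 7 tested markers of smooth muscle and pericytes 7 were lower (12384 and 5542), and of 14 tested leukocyte markers 9 were lower (2280 and 573). The leukocyte sums were mostly Lyz2 (1476 in control and 335 in Atg5-KD), and the sums of the other lists likewise follow their most abundant genes. Of 8 luteal markers 7 were higher (91295 and 161515), and 0 of the tested markers of oocyte, endothelium and surface epithelium, 5, 5 and 6 genes, passed the test. Figla of the oocyte was the marker at 0, and Cyp17a1 and Insl3, which define theca cells, had base means of 0.131 and 2.40. The part of these cell types in the results below was not tested, nor was whether the luteal markers came from the granulosa cells themselves. In whole-culture RNA fewer cells of a type and less RNA per cell cannot be told apart.

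Inhba and Inhbb encode related proteins, so the ends of their coding sequences are shown first, to let a reader see how far the transcripts can be told apart by sequence. Both are the last 120 bases before the stop codon, read from GENCODE M21 transcripts (GRCm38), at chr13:16027007-16027126 on the plus strand for Inhba and chr1:119417325-119417444 on the minus strand for Inhbb, in the last coding exon of each gene. Capitals mark the bases that are identical between the genes, 89 of 120 or 74.2%.
Inhba: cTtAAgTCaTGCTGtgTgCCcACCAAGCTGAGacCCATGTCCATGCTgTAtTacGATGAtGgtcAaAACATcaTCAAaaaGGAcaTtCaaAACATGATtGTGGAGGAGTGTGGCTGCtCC
Inhbb: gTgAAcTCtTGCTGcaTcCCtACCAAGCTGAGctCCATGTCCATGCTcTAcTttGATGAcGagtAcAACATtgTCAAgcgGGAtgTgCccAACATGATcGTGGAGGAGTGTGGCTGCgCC
The longest unbroken match in this stretch was 18 bases. It was also the longest run shared by any of the 45 pairs of transcripts of the 10 genes, with a median of 12 bases, which is shorter than a sequencing read.

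The beta subunit genes moved in opposite directions while the alpha subunit gene did not pass the test. Inhbb fell and Inhba rose in the libraries labelled Atg5-KD, and Fst fell while the receptor gene Acvr2a rose. Together 4 of the 10 genes were called, 2 higher and 2 lower, beside 20.9% of all 14835 tested genes (10.4% higher and 10.5% lower) and 25.6% of tested genes with a base mean of at least 100. The median log2 fold change of the 10 was 0.05, beside 0.00 for all tested genes, and their median absolute log2 fold change was 0.22, beside 0.23. The members went both ways, from -1.14 to 0.54, so these medians do not describe single genes. At an unadjusted p under 0.05 the count was also 2 higher and 2 lower, beside 2317 higher and 2357 lower of all 14835 tested genes.

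**Figure D1:**
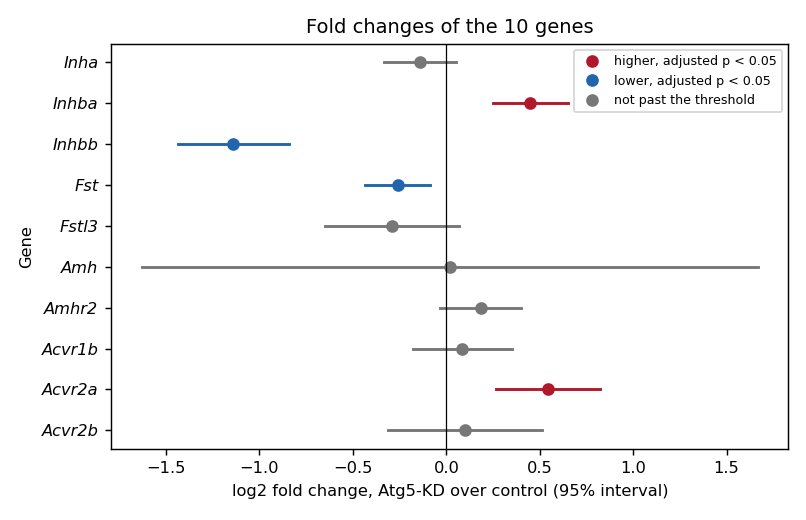
Log2 fold change of each of the 10 genes, Atg5-KD over control, from the authors' deposited table, with lines for the 95% interval. Inhbb lies furthest from 0 at -1.14, Inhba and Acvr2a lie above 0 at 0.45 and 0.54, and the interval of Amh spans from -1.63 to 1.67.

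Inha, the alpha subunit shared by inhibin A and inhibin B, lies on chromosome 1 from 75507077 to 75510366. It had an estimated 31530 normalized counts in control and 28597 in Atg5-KD. The authors' deposited table gives it a log2 fold change of -0.14 ± 0.10 (SE, Wald adjusted p = 0.34), and the interval from -0.33 to 0.05 leaves a fall of more than 20.6% or a rise of more than 3.65% outside it. Per kb of exon it was the most abundant of the 10 genes in both groups.

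Inhba, the subunit of activin A and inhibin A, lies on chromosome 13 from 16011851 to 16031621 and was estimated at 20623 normalized counts in control and 28139 in Atg5-KD. This is a 1.36-fold rise with an interval of 1.19-fold to 1.57-fold, from a value of 0.45 ± 0.10 (SE, Wald adjusted p = 0.000177) on the log2 scale of the authors' deposited table. Among the 38 other tested genes within 1.5-fold of its base mean, 6 had a larger log2 fold change.

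Inhbb, the subunit of activin B and inhibin B, lies on chromosome 1 from 119415465 to 119422248 and was estimated at 1864 normalized counts in control and 846 in Atg5-KD. By the authors' deposited table its log2 fold change was -1.14 ± 0.15 (SE, Wald adjusted p = 4e-12), so that the Atg5-KD level was 0.454 of control with an interval of 0.369 to 0.557. Of 2312 other tested genes within 1.5-fold of its base mean, 13 had a lower log2 fold change. Its standard error of 0.15 was above the median of 0.11 for those genes.

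Differences between these fold changes do not depend on how libraries are scaled, since a constant shift cancels. Of 7 pairs of genes compared, with both standard errors taken as independent, Inhba exceeded Inhbb by 1.59 on the log2 scale, with a 95% interval of 1.23 to 1.95. This is a 3.01-fold change in the ratio of the beta subunit transcripts (interval 2.35 to 3.86). Inha lay between them, below Inhba by a log2 difference of -0.59 (interval -0.87 to -0.31) and above Inhbb by 1.00 (interval 0.65 to 1.35). Per kb of exon, the estimated Inhbb level was 12.0% of the sum of both beta subunit levels in control and 4.32% in Atg5-KD. The estimated ratio of Inhba to Inhbb per kb was 7.37 in control and 22.2 in Atg5-KD. That of Inha to the sum of Inhba and Inhbb per kb was 5.83 and 4.21. The lengths are those of all exons in GENCODE M21, and the annotation on which the authors counted is not stated. Shares and ratios per kb between genes are therefore approximate.

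**Figure D2:**
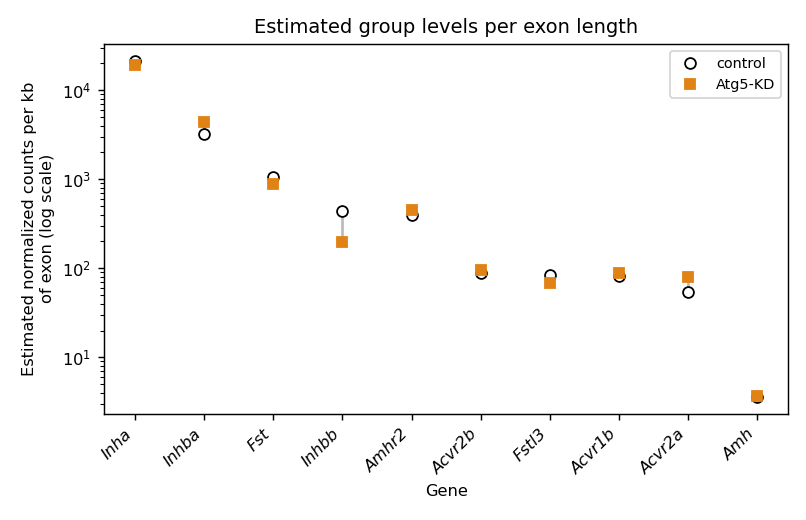
Estimated level of each gene per kb of exon on a log axis, in normalized counts, for control (open circles) and Atg5-KD (squares); no spread between libraries can be drawn because the table pools them. Inha stands at the top at 21376 in control and Amh at the bottom at 3.61, and Inhbb shows the widest gap between the groups, from 438 to 199.

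Of the genes for activin-binding proteins in the set, Fst had the more abundant transcript. Per kb of exon Fst was estimated at 1046 in control and 873 in Atg5-KD, and Fstl3 at 84.1 and 68.9. Fst lies on chromosome 13 from 114452290 to 114458951, with an estimated 4799 normalized counts in control and 4006 in Atg5-KD. It fell, with -0.26 ± 0.09 (SE, Wald adjusted p = 0.0203) on the log2 scale of the authors' deposited table and an Atg5-KD level of 0.835 of control (interval 0.74 to 0.942). Fstl3, on chromosome 10 from 79777272 to 79782630, was estimated at 206 normalized counts in control and 168 in Atg5-KD. The authors' deposited table lists it at -0.29 ± 0.18 (SE, Wald adjusted p = 0.282), not past the threshold. The difference between Fst and Fstl3 was 0.03 on the log2 scale, with an interval of -0.37 to 0.43.

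Fst and its ligand gene Inhba differed in response, by a log2 difference of -0.71 (interval -0.97 to -0.44). The sum of the beta subunit levels per kb was 3.51 times the Fst level in control and 5.27 times in Atg5-KD, by the estimated levels. These ratios rest on the same exon lengths and concern transcripts, and protein was not measured.

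Of the 3 activin receptor genes in the set, Acvr2a passed the Wald test of the authors' deposited table and Acvr2b and Acvr1b did not. Acvr2a, on chromosome 2 from 48814109 to 48903269, was estimated at 307 normalized counts in control and 448 in Atg5-KD, a 1.46-fold rise with an interval of 1.20 to 1.77. On the log2 scale the authors' deposited table gives 0.54 ± 0.14 (SE, Wald adjusted p = 0.00128). Acvr2b, on chromosome 9 from 119402118 to 119434995, was estimated at 346 in control and 371 in Atg5-KD, and the authors' deposited table gives 0.10 ± 0.21 (SE, Wald adjusted p = 0.803). The type I receptor gene Acvr1b, on chromosome 15 from 101174067 to 101213684, was estimated at 365 and 387, with 0.09 ± 0.14 (SE, Wald adjusted p = 0.726). The difference between Acvr2a and Acvr2b was 0.44 on the log2 scale with an interval of -0.05 to 0.94, so the type II receptor genes were not shown to respond differently.

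The Acvr2a rise has a limit in the annotation. Its exons overlap 446 bases of exon of Orc4, a replication gene on the opposite strand with a base mean of 768, and Orc4 also rose in the authors' deposited table (log2 fold change 0.43 ± 0.11 SE, Wald adjusted p = 0.000729). Whether counting used strand is not stated in the labels, so it is not known whether reads of both genes were told apart there. The overlaps are those of GENCODE M21, and the annotation used for counting is not stated. Fst shares 115 exon bases with the antisense gene Gm47040, and Fstl3 shares 1157 with Prss57, which had a base mean of 0.776.

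Amh was close to the limit of detection. It lies on chromosome 10 from 80805243 to 80807648 and had a base mean of 6.07 in the authors' deposited table, with estimated levels of 6.03 in control and 6.11 in Atg5-KD. Its log2 fold change of 0.02 ± 0.84 (SE, Wald adjusted p = 0.991) has an interval from -1.63 to 1.67. A fall to 0.323 of control or a 3.17-fold rise was therefore not excluded. Amhr2, on chromosome 15 from 102445367 to 102454633, was well measured at an estimated 789 normalized counts in control and 895 in Atg5-KD. The authors' deposited table lists it at 0.18 ± 0.11 (SE, Wald adjusted p = 0.246), not past the threshold, with an interval that reaches from a fall of 2.14% to a rise of 31.7%.

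**Figure D3:**
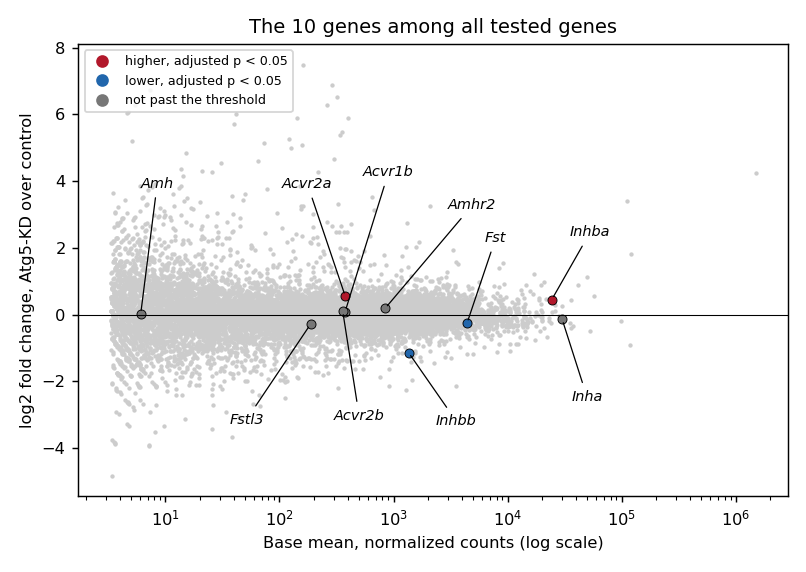
Log2 fold change against base mean (log axis) for all 14835 tested genes (grey) of the authors' deposited table, with the 10 genes marked. Inha and Inhba lie at the abundant end, Amh at the low end with a base mean of 6.07, and Inhbb lies at the lower edge of the genes of like abundance.

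The fold changes in this table moved with the base composition of the transcripts, which bears on genes as unlike as Inhba and Inhbb. Over the 14648 tested genes with a matched transcript, cut into 5 bins by GC content, the median log2 fold change was 0.19 in the lowest bin and -0.20 in the highest. In the lowest bin 642 of 2930 genes were higher and 106 lower, and in the highest bin 91 of 2930 were higher and 644 lower. Inhba and Acvr2a, with GC contents of 41.4% and 39.9%, fall in the lowest bin. Fst, at 44.3%, falls in the next, Acvr1b and Acvr2b in the last but 1, and Inha, Inhbb, Fstl3, Amh and Amhr2 in the highest.

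With the trend in GC content and exon length removed, Wald p-values were adjusted again over the 14648 tested genes with a matched transcript. Inhbb (log2 fold change -0.82, adjusted p = 1.71e-06), Fst (-0.36, adjusted p = 0.00076) and Inhba (0.30, adjusted p = 0.0293) were then still called in the same directions. The rise of Acvr2a was not (0.33, adjusted p = 0.101), while Amhr2 then passed the test as higher (0.37, adjusted p = 0.00866). Inha changed sign to 0.11 without passing the test (adjusted p = 0.572). These p-values, and the intervals that follow, keep the deposited standard errors, so uncertainty of the trend is left out. The difference between Inhba and Inhbb became 1.12 (interval 0.76 to 1.48), that between Inha and Inhbb 0.93 (interval 0.58 to 1.29), and that between Inha and Inhba -0.19 (interval -0.47 to 0.09), which no longer excludes 0.

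The scale set by the authors' size factors matters as well, because Rn45s took a larger share of the Atg5-KD total. Scaling to the estimated total of all reads lowers every log2 fold change by 0.30. On that scale the rises of Inhba (0.15, Wald adjusted p = 0.239) and Acvr2a (0.25, adjusted p = 0.152) were not called, while Inhbb (-1.44), Fst (-0.56), Inha (-0.44, adjusted p = 5.23e-05) and Fstl3 (-0.59, adjusted p = 0.00469) were called lower, beside 5735 of all tested genes. Scaled to the total without Rn45s, a setting chosen after seeing the data, the shift was 0.03 downwards and the same 4 genes were called as in the deposited table. Inhbb and Fst were lower at an adjusted p under 0.05 on each of these scales. Both scalings move every fold change downwards, so a gene lower as deposited could only move further down. They are therefore no test of the falls of Inhbb and Fst.

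**Figure D4:**
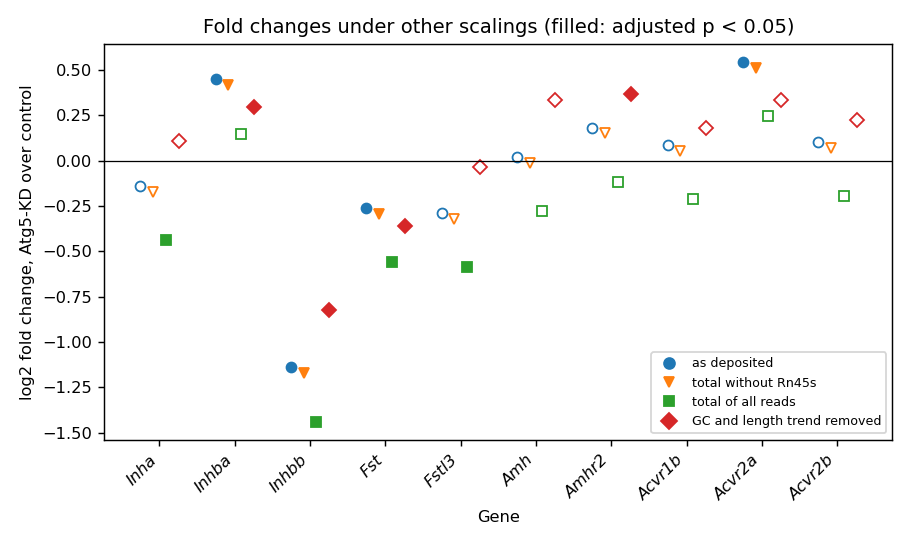
Log2 fold change of each gene as deposited, scaled to the total without Rn45s, scaled to the total of all reads, and with the GC and length trend removed, with filled symbols for an adjusted p under 0.05. Inhbb lies between -1.44 and -0.82 and Fst between -0.56 and -0.26 with every symbol filled, whereas Inhba and Acvr2a have open symbols on the scale of all reads. Both scalings to a total move every gene downwards, so they could not remove a fall.

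The promoters of the called genes with an entry are shown because these members moved in different directions and differ in base composition. RefSeq promoter entries (GRCm38.p6) matched 8 of the 10 genes, all but Fst and Amh. Each sequence is the 250 bases before the annotated start, 5′ to 3′ on the gene's strand, at chr1:119422249-119422498 (minus) for Inhbb, chr13:16011601-16011850 (plus) for Inhba and chr2:48813859-48814108 (plus) for Acvr2a. Capitals mark matches on either strand to the motifs that follow.
Inhbb: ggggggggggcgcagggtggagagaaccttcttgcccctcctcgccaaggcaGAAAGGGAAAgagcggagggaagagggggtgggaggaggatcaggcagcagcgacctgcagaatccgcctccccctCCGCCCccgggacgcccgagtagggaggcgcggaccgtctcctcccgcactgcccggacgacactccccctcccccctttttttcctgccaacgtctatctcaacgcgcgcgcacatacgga
Inhba: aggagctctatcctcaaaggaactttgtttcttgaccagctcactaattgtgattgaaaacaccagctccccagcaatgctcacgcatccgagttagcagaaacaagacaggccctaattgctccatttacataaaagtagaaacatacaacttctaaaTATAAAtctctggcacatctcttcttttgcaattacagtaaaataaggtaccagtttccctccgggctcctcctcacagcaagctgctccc
Acvr2a: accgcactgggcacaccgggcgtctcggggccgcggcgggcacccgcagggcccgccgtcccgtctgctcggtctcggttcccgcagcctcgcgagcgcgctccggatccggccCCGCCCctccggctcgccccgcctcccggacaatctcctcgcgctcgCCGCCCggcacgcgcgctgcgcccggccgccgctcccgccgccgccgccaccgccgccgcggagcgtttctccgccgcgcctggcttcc
GC content of these windows was 68.0% for Inhbb, 43.2% for Inhba and 82.0% for Acvr2a, beside a median of 52.4% over 32851 promoters. All motifs were searched on both strands. They were the cyclic AMP response element, written TGACGTCA, and its shorter core, which is the first 5 letters of that element. The core bound by many nuclear receptors was searched as AGGTCA, and the longer form bound by SF-1 has 1 more A before it. The core of the interferon-stimulated response element was searched as GAAA followed by any 2 bases and the same 4 letters again. The TATA box was searched as TATAAA, and the GC box, bound by SP1, as GGGCGG. Each shorter core lies within its longer form, so those matches overlap.

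Inhbb held the interferon-stimulated element core at 198 bases before its start, a motif in 2.98% of all promoters of this length, and 1 GC box, a motif in 32.7%. Inhba held 1 TATA box at 91 bases before its start, a motif in 12.4% of promoters, and Acvr2a held 2 GC boxes. Of the 5 other genes with an entry, Amhr2 held the SF-1 form, found in 4.08% of promoters, and Inha and Fstl3 each held AGGTCA, found in 14.0%. Fstl3 also held a TATA box, and Acvr2b, Fstl3, Acvr1b and Amhr2 held GC boxes. The Inha entry starts at 75507359, inside the gene as GENCODE gives it, so it does not describe the start used by that annotation. The cyclic AMP response element, in 1.55% of promoters, and its core, in 17.8%, were in none of the 8 windows. A match is a description of these letters, and binding was not measured.

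Other genes of the pathway were counted from 7 lists, each to be read beside the 10.4% of all tested genes called higher and 10.5% called lower. On the scale of all reads those totals were 534 higher and 5735 lower, and 6 of the 7 lists had more lower members there. Among further ligands of the superfamily 0 of 10 tested were higher and 5 lower, with a median log2 fold change of -0.57. They were Bmp3 at -1.87 ± 0.15 (SE), Bmp2 at -1.10 ± 0.13 (SE), Bmp6 at -1.34 ± 0.18 (SE), Tgfb3 at -0.57 ± 0.12 (SE) and Tgfb1 at -0.57 ± 0.13 (SE) in the authors' deposited table. These 5 were also lower with the GC trend removed, when 1 more gene was higher, and on the scale of all reads, on which 7 were lower. Gdf9, an oocyte ligand, had a base mean of 19.8, and the beta subunit relatives Inhbc and Inhbe had base means of 1.06 and 0.213, under the authors' filter.

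Further binding proteins and antagonists had 1 higher and 4 lower among 9 tested. Among those lower, Nbl1 was at -0.55 ± 0.12 (SE), Grem1, an antagonist of bone morphogenetic proteins, at -0.55 ± 0.13 (SE) and Nog at -1.40 ± 0.36 (SE), while Fstl1 was at 0.27 ± 0.09 (SE) in the authors' deposited table. Nbl1 and Fstl1 were not called with the GC trend removed, and on the scale of all reads 0 were higher and 4 lower. Of 4 tested co-receptors and decoys, Tgfbr3, the betaglycan that strengthens binding of inhibin to the type II receptors, was lower at -0.53 ± 0.20 (SE, Wald adjusted p = 0.0468) in the authors' deposited table, and 0 were higher. On the scale of all reads all 4 were lower. Tgfbr3l, a relative of Tgfbr3, did not pass the test at -0.43 ± 0.24 (SE, Wald adjusted p = 0.206). Proprotein convertases, which cleave the precursors of these ligands, had 0 of 6 past the adjusted threshold of the authors' deposited table (Wald test of DESeq2). At an unadjusted p under 0.05 it counts 1 as higher and 2 as lower, beside 2317 and 2357 of all 14835 tested genes. On the scale of all reads 4 of the 6 were lower (Pcsk2, Furin, Pcsk4 and Pcsk5), and with the GC trend removed Pcsk7 was called higher and 0 lower. Those of highest base mean, Pcsk5 and Furin, have 0.03 ± 0.09 (SE) and -0.23 ± 0.11 (SE) there, by the authors' deposited table.

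Of 8 tested further receptors 2 were higher and 1 lower. Tgfbr1 was at 0.46 ± 0.12 (SE), Acvr1c, a type I receptor of activin B and nodal, at 2.06 ± 0.67 (SE) with a base mean of 10.5, and Bmpr1b at -0.65 ± 0.15 (SE) in the authors' deposited table. The rises of Tgfbr1 and Acvr1c were not called with the GC trend removed, and on the scale of all reads 1 was higher and 3 lower. SMADs and their partners had 2 higher and 3 lower of 14 tested. Smad2, a direct target of the activin receptor kinase, was at 0.39 ± 0.10 (SE) and Skil at 0.43 ± 0.11 (SE), and lower were the corepressor Ski at -0.50 ± 0.12 (SE), Tgif1 at -0.42 ± 0.10 (SE) and Smad6 at -0.46 ± 0.12 (SE) in the authors' deposited table. With the GC trend removed only Ski and Tgif1 of the 14 were called. On the scale of all reads 0 were higher and 6 lower, with Smurf1, Smad7 and Smad4 added and Skil and Smad2 no longer called. The authors' deposited table has Smad3 and Smad4, which did not pass the test, at 0.16 ± 0.11 (SE) and -0.01 ± 0.10 (SE).

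Known regulators of the inhibin and AMH genes had 4 higher and 4 lower of 17 tested. Foxl2, Fshr, Esr2, Nr5a2, Wt1 and Gata4 were also counted among the granulosa markers above, and Lhcgr among the luteal markers. These counts are therefore not separate from those of the markers. Among those higher, Lhcgr, the receptor of luteinizing hormone, was at 2.35 ± 0.28 (SE) and Nr5a2 at 0.62 ± 0.12 (SE), with Creb1 at 0.37 ± 0.14 (SE) in the authors' deposited table. Lower were Foxl2, a granulosa transcription factor, at -0.49 ± 0.10 (SE), Esr2 at -0.64 ± 0.14 (SE), Gata6 at -0.42 ± 0.12 (SE) and Nr5a1, which encodes SF-1, at -0.25 ± 0.09 (SE) in the authors' deposited table. With the GC trend removed Lhcgr, Nr5a2 and Esr2 kept their calls, Foxl2, Gata6, Nr5a1 and Creb1 did not, and Gata4 was called higher. On the scale of all reads 2 were higher and 7 lower, with Wt1, Sox8 and Sox9 added to the lower genes. Fshr, the receptor of follicle-stimulating hormone, did not pass the test at 0.46 ± 0.24 (SE, Wald adjusted p = 0.175) with a base mean of 93.4 in the authors' deposited table.

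**Figure D5:**
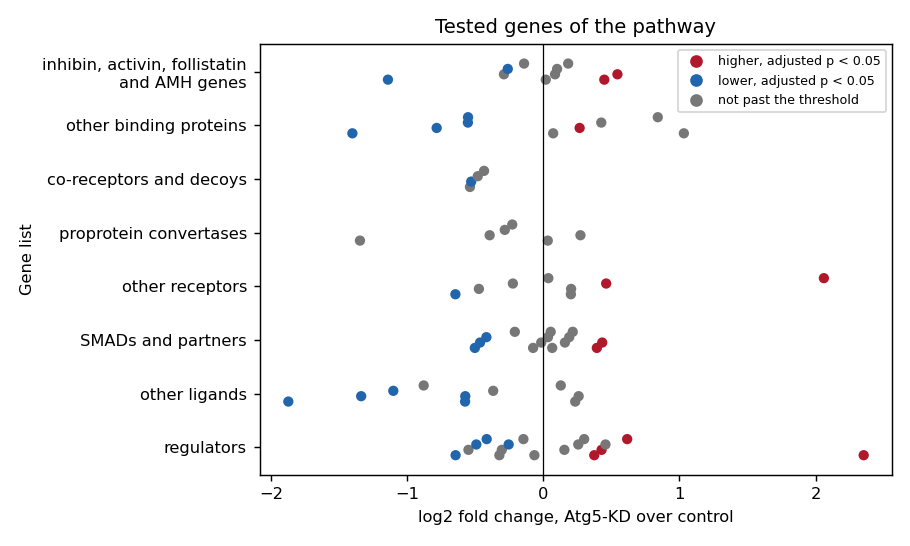
Log2 fold change, Atg5-KD over control, of every tested gene in the 10-gene set (top row) and in the 7 pathway lists, 1 point per gene, coloured by call in the authors' deposited table. The row of other ligands has 5 lower and 0 higher points, and the row of co-receptors and decoys has all of its points below 0 with 1 call.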

How the data were processed

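RNA of 6 mouse cumulus granulosa cell libraries, 3 per group, was sequenced by the submitters, and the authors' own comparison of both groups was the only table used here. Per the submitters' processing notes, the build was mm10 and the tools included DESeq2 1.30.1, StringTie 2.1.4, featureCounts 1.6.2 and STAR, whose roles are not given. Per the file headers, the base mean is a signal value of the authors (counts divided by size factors, averaged over libraries). The log2 fold change with its standard error, the Wald statistic (a score) and the p-value with its Benjamini-Hochberg adjustment over all 14835 tested genes are further columns that the authors deposited. The table holds 0 values per library, so the planned count test, the fits without a replicate and DESeq2 against edgeR were not run, and the branch planned for a table of comparisons was used.

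Group levels were estimated as the pair of means that gives both the base mean and the fold change. Intervals are the fold change ± 1.96 standard errors (95%). Scalings shifted every fold change by a constant. The trend with GC content and exon length was removed as medians over 20 bins of each. Wald p-values were then adjusted again over the 14648 tested genes with a matched transcript, with the deposited standard errors kept. These steps were run on simulated fold changes in which the true changes were unrelated to GC content. Whether removing the trend also takes away true changes tied to GC content was therefore not tested. GENCODE M21 (GRCm38) gave lengths and coordinates, and may differ from the annotation on which the authors counted. A call is an adjusted p under 0.05. Named are the 10 genes, Atg5, and in each of 7 pathway lists up to 4 genes of smallest adjusted p where the list has a call, otherwise the 2 of highest base mean. Other genes named to complete a count were chosen after their values were seen, and 2 genes counted in the lists are not reported here by name. The genes and lists were chosen with earlier results of these data known. Python 3.11.15, numpy 2.4.6, pandas 2.3.3 and scipy 1.17.1 were used.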

Additional observations from a re-analysis of the deposited data

How the results depend on the processing

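With 0 values per library in the table, no replicate could be left out. No paired analysis was possible because the table pools the libraries and its columns carry no replicate numbers. The library titles carry the numbers 2, 3 and 4 in both groups. Whether these mark pairs, and whether the deposited test used them, is not stated. The calls of the 10 genes were the same when p-values were adjusted over every gene with a p, at a threshold of 0.1 and after recentring on the median gene, and also with a base mean of at least 50 for the 9 genes left, Amh falling out. The number called lower, 2 as deposited, was 1 at an adjusted p under 0.01, where Fst was lost, and 4 on the scale of all reads, on which 0 were called higher in place of 2. That scale turned the sign of uncalled genes, Amhr2 to -0.12, Acvr1b to -0.21, Acvr2b to -0.20 and Amh to -0.28. Without Rn45s in the total Amh turned to -0.013, and with the GC and length trend removed Inha turned to 0.11. Each turn follows from what was subtracted, a constant for the scalings and the fitted trend for Inha. The cause of the trend was not tested. Over all tested genes 1541 were higher and 1559 lower as deposited, 534 and 5735 on the scale of all reads, and 1026 and 1030 at an adjusted p under 0.01. With the trend removed, 954 of 14648 genes were higher and 1094 lower. Depth limits Amh, with a base mean of 6.07.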

Other observations

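The locus of Inhba also holds B230303A05Rik, a transcribed pseudogene on the opposite strand that shares 0 exon bases with Inhba. It rose in the authors' deposited table with a log2 fold change of 2.30 ± 0.54 (SE, Wald adjusted p = 0.000265), and its base mean there was 21.6. It was chosen after its value was seen. Whether reads of both genes were told apart by strand is not stated in the labels.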
